A study of Mus musculus with 6 samples.

Results

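Replication origin licensing loads the replicative helicase onto DNA before S phase, and 10 of its genes were followed in neurospheres with and without a conditional knockout of Ash2l. They were the helicase subunits Mcm2 to Mcm7, the loading factors Cdc6 and Cdt1, the origin recognition subunit Orc1 and the Cdt1 inhibitor Gmnn. They were taken by gene name from the 54532 genes of the deposited table, where all 10 were found, and all 10 passed the filter on low counts that left 16606 genes. The 10 genes were selected on their KO and WT read counts in these same libraries, so their KO and WT levels are described here and not tested.

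RNA was sequenced from primary neurospheres, floating colonies of neural progenitors, from C57BL/6 embryos at E14.5. The 3 KO libraries, numbered 1, 2 and 3, came from Ash2l cKO embryos carrying D6-Cre, a recombinase transgene active in the dorsal forebrain, and the 3 WT libraries, numbered 3, 6 and 7, from WT embryos. All spheres were sampled on day 6 of culture in medium with EGF and bFGF at 20 ng/ml each, so both groups had been under the same mitogens. ASH2L belongs to every COMPASS complex, the enzymes that methylate histone H3 at lysine 4, and the comparison asked which transcripts differ when its gene is deleted. The labels give both the dorsal cortex and the walls of the lateral ventricles as the origin of the cells, and state neither the Cre status of the WT embryos nor whether each library had its own embryo or culture. The p-values therefore cover the spread among these 6 libraries, part of which may be technical.

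In G1 the origin recognition complex marks origins, and CDC6 and CDT1 then place the ring-shaped MCM helicase around the DNA. Geminin, the product of Gmnn, binds CDT1 from S phase onward and blocks a further round of loading. The loaded ring starts to unwind only when kinases add CDC45 and the GINS complex, a step called firing. Genes of this pathway are known as targets of E2F factors, and their transcripts are widely used as signs of proliferating cells, among them the cycling progenitors of the embryonic cortex.

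Of the 10 genes, 8 had an entry in the RefSeq promoter table (GRCm38.p6, 250 bases before to 50 after the start), all but Mcm4 and Gmnn, and Mcm7 had a pair of entries. The E2F motif searched, on both strands, was TTT, then 2 bases that are each C or G, then CGC. It was found for 7 of the 8 genes, all but Mcm2, and in 744 of all 32851 promoters of the table, or 2.26%. The 9 promoters of the licensing genes held 48.7% to 66.7% G and C, and of the 21552 promoters with at least the lowest of these, 3.1% held the motif. A match is a description of the letters and not a bound site. The stretches around the matches are shown because this motif was found for more of the licensing genes than the other motifs searched, with each match in capitals, on the strand of the gene, 5′ to 3′. Where matches on opposite strands overlap, the capitals cover both.
Mcm5, chr8:75109339-75109398, plus strand: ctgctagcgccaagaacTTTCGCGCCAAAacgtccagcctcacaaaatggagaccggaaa
Mcm6, chr1:128359736-128359845, minus strand: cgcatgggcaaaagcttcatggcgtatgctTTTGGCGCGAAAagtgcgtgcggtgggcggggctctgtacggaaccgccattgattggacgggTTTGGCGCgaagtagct
Orc1, chr4:108579384-108579443, plus strand: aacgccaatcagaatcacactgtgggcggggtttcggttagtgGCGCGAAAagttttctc
Mcm3, chr1:20820266-20820295, minus strand: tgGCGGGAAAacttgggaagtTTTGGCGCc
Cdc6, chr11:98908002-98908031, plus strand: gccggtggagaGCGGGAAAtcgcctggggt
Cdt1, chr8:122568034-122568063, plus strand: cgggaactaccttTTTGGCGCcatggcgca
Mcm7, chr5:138172030-138172059, minus strand: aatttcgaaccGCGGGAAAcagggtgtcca

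Mcm5 and Mcm6 held overlapping matches on the opposite strands, and Mcm6 a further match nearer its start. The matches of Mcm3 and Cdt1 lay downstream of the RefSeq start, and Mcm7 had a further match there that is not shown. For some genes the RefSeq start differs from the gene start in the deposited table, given with each gene below. By those gene positions the shown matches of Cdc6, Orc1 and Mcm7 also lie inside the gene. Among the other letters searched, on both strands, CCAAT, the core of the NF-Y motif, was present for 6 of the 8 genes and in 37.4% of all promoters. GGGCGG, an Sp1 motif, was present for 6 of 8 and in 35.7%. TTTGAA or TTCGAA, the CHR element of mitotic promoters, was present for Mcm2 and Mcm7 and in 19.2%. By comparison, the E2F motif was found for 3 of 10 matched genes of origin firing, 2 of 5 MCM-related genes, 1 of 6 other origin recognition genes and 1 of 14 genes of the turnover list described with the rest of the pathway.

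The libraries held 16764480 to 21983659 counts, so that 3 reads were worth 0.142 to 0.173 CPM (counts scaled to library size with TMM normalisation). Ash2l itself was at 84.9% of the WT level in KO (edgeR quasi-likelihood test, log2 fold change -0.24, SE 0.10, Benjamini-Hochberg adjusted p = 0.119). Which exons D6-Cre removes is not stated in the labels, and reads from any exons left in place would be part of this count. How far the gene was deleted in these cells was not measured. Progenitor markers such as Nes, Sox2 and Vim summed to 3831 to 5214 CPM in WT and 3742 to 5809 CPM in KO. The highest were Fabp7, with means of 1672 CPM in WT and 1599 in KO, and Vim, with 1600 and 1716. Of the 8 markers 1 was higher in KO, Nes at a log2 fold change of 2.21. The 4 lower were Sox2, Pax6, Sox1 and Notch1, at -1.15, -1.24, -1.22 and -0.65. The share of progenitors in each group cannot be read from the sum. Markers counted as higher or lower in this paragraph passed an adjusted p of 0.05 in the edgeR quasi-likelihood test. Among all tested genes 13.5% were called higher and 15.5% lower in KO. Forebrain markers summed to 413 to 462 CPM in WT and 361 to 542 CPM in KO. WT 3 stood apart from the other WT libraries, with markers of cycling cells summing to 255 CPM against 99.7 in WT 6 and 76.9 in WT 7, neuronal markers to 2476 CPM against 1582 and 1387, and astrocyte markers to 2457 CPM against 7196 and 7970. In KO, astrocyte markers summed to 1137 to 2011 CPM and 6 of 8 were lower, and oligodendrocyte markers summed to 1114 to 2043 CPM against 3824 to 4566 in WT, with 6 of 8 lower. Neuronal markers summed to 2477 to 3662 CPM in KO with 1 of 8 higher, at a median log2 fold change of 1.53. Mural and meningeal markers were at 381 CPM in KO 1 against 25.1 to 60.0 in the other 5 libraries. Microglial markers stayed at 9.05 CPM or less and endothelial markers at 6.88 CPM or less, with Cdh5 and Cldn5 at 0 in the WT libraries. The part of these differences in the levels of the licensing genes was not tested.

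Together the 10 genes held 0.0186% to 0.0209% of all counts in the WT libraries and 0.0886% to 0.126% in the KO libraries. Each of them was higher in all 3 KO libraries than in all 3 WT libraries, and all 10 passed an adjusted p of 0.05 in the edgeR quasi-likelihood test with Benjamini-Hochberg adjustment. Among all tested genes 29.0% passed, made up of 13.5% of all tested genes that were higher and 15.5% that were lower in KO, and the groups did not overlap for 48.6%, with all KO libraries above all WT libraries for 23.5%. As the genes were chosen for this contrast, nothing is read from these counts. KO over WT, the median log2 fold change was 2.74 for the 10 genes, or 6.67-fold, against 0.00 for all tested genes. In bulk RNA, a higher share of cycling cells and more of these transcripts per cell cannot be told apart.

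**Figure D1:**
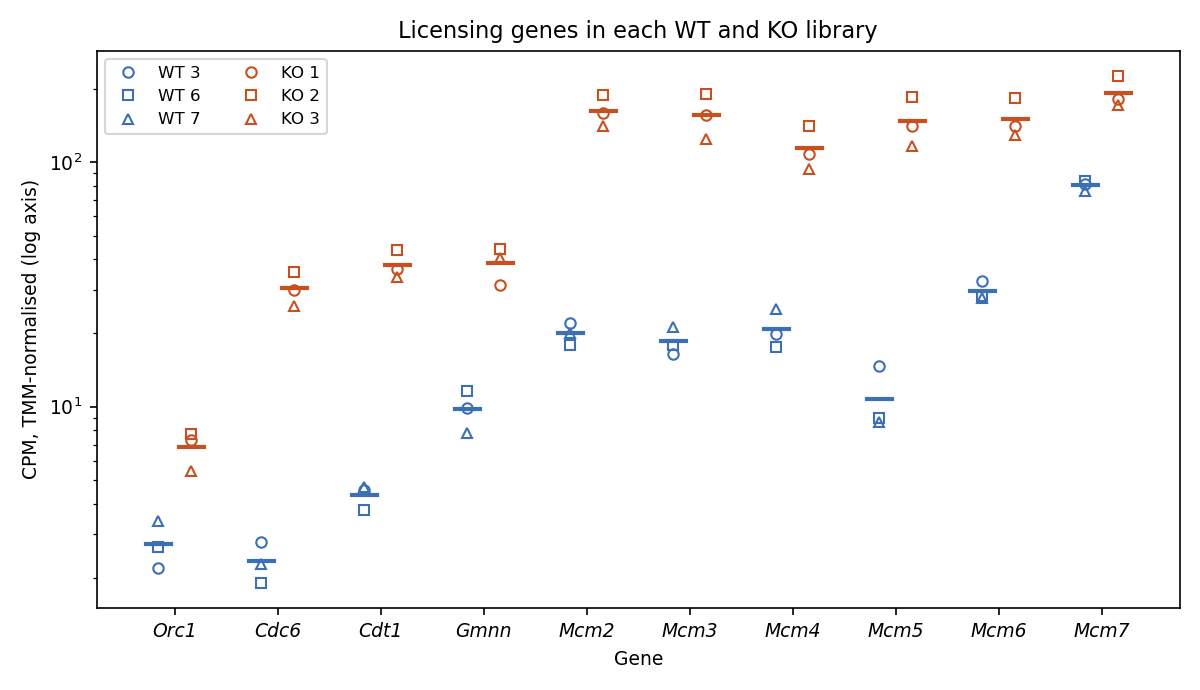
TMM-normalised CPM (log axis) of the 10 licensing genes, with 1 symbol per library, WT in blue and KO in orange, and bars at the group means. The lowest KO library lay above the highest WT library for each gene, by 1.60 times for Orc1 and by 9.21 times for Cdc6.

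Loading starts at origins bound by the origin recognition complex, whose largest subunit, an ATPase, is encoded by Orc1 (ENSMUSG00000028587, chromosome 4, 108579423 to 108614833 on mm10). The Orc1 level was 2.19, 2.66 and 3.41 CPM in the WT libraries and 7.32, 7.72 and 5.44 CPM in the KO libraries, here and throughout in the order of their numbers. It was the least separated of the 10 genes, with 39 to 72 reads in the WT libraries and 115 to 143 in the KO libraries. The log2 fold change was 1.31 (SE 0.28), from 2.75 ± 0.616 to 6.83 ± 1.22 CPM (SD, n = 3 each), 2.47-fold. Without WT 6 or KO 2 the count of licensing genes past the threshold was 9, with Orc1 outside it, and nothing is read from this count either.

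Cdc6 encodes the ATPase that joins origin-bound ORC and, with CDT1, loads the helicase (ENSMUSG00000017499, chromosome 11, 98907801 to 98923940). Its level was 2.80, 1.91 and 2.27 CPM in the WT libraries and 30.1, 35.6 and 25.8 CPM in the KO libraries. All WT libraries were below 3 CPM and no KO library came near them. Cdc6 thus differed 13.1-fold between the means of 2.33 ± 0.451 and 30.5 ± 4.92 CPM (log2 fold change 3.71, SE 0.23). 

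Cdt1 encodes the escort that brings the MCM ring to ORC and CDC6 (ENSMUSG00000006585, chromosome 8, 122568015 to 122573554). It was read at 4.54, 3.77 and 4.69 CPM in WT and at 36.7, 43.6 and 34.0 CPM in KO. The WT libraries lay close together, and the lowest KO library was 7.24 times the highest of them. The log2 fold change was 3.13 (SE 0.18), 8.78-fold, from 4.33 ± 0.496 to 38.1 ± 4.98 CPM. Gmnn, which encodes the inhibitor geminin (ENSMUSG00000006715, chromosome 13, 24751845 to 24761923), was at 9.87, 11.6 and 7.81 CPM in WT and at 31.5, 44.3 and 40.4 CPM in KO. It was the 1 gene of the 10 with a higher CPM in KO 3 than in KO 1. Its change was smaller than that of Cdt1 in these means, 3.97-fold from 9.76 ± 1.90 to 38.7 ± 6.53 CPM (log2 fold change 1.99, SE 0.21).

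Per length, on the FPKM scale, Gmnn exceeded Cdt1 by 4.66, 6.60 and 3.57 times in the WT libraries and by 1.84, 2.18 and 2.55 times in the KO libraries. Per length, geminin transcripts were the more abundant in all 6 libraries, and the ratios of the groups did not overlap, with means of 4.94 ± 1.53 and 2.19 ± 0.355 (SD, n = 3 each). Both genes were selected on this contrast, and the levels of 48.6% of all tested genes did not overlap either. The separation of the ratios is therefore described only. The ratio depends on the length used, and with the annotated coding transcript of each gene the means were 4.48 and 1.98. On the CPM scale, which takes no account of length, the means were 2.31 and 1.02, and Gmnn lay below Cdt1 in KO 1, at 0.859 times its value. The ratio concerns transcripts only, and both proteins are also controlled by degradation.

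The helicase subunits form a ring with each of the 6 present in equal number. Mcm5 (ENSMUSG00000005410, chromosome 8, 75109569 to 75128439) was at 14.7, 8.99 and 8.62 CPM in WT and at 140.2, 184 and 116 CPM in KO. WT 3 was the highest WT library, at 1.67 times the mean of the other WT libraries, and still far below every KO library. The log2 fold change was 3.77 (SE 0.28), 13.7-fold, and 4.06 without WT 3. It was the largest of the 10 genes in the fit of all libraries, while Cdc6 was larger without WT 7 (3.69 against 3.63) or KO 2 (3.59 against 3.58). Mcm3 (ENSMUSG00000041859, chromosome 1, 20802968 to 20820312) was at 16.5, 17.9 and 21.2 CPM in WT and at 155, 189.7 and 124 CPM in KO. Here WT 3 was the lowest WT library, and the change was 8.43-fold (log2 fold change 3.08, SE 0.19).

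Mcm2, whose product also carries histones at the fork (ENSMUSG00000002870, chromosome 6, 88883474 to 88898780), measured 22.0, 17.9 and 20.0 CPM in WT and 159, 188 and 141 CPM in KO. The lowest KO library was 6.37 times the highest WT library. The log2 fold change was 3.02 (SE 0.15), 8.14-fold, and Mcm2 was the 1 matched licensing gene without the E2F letters in its promoter window. Mcm4 (ENSMUSG00000022673, chromosome 16, 15623897 to 15637400) was at 19.9, 17.6 and 25.0 CPM in WT and at 108, 140.2 and 93.5 CPM in KO. Mcm4 and Mcm6, which with Mcm7 form a core with helicase activity of its own, were both between 3 and 4 times apart at their nearest libraries. Their log2 fold changes were 2.45 (SE 0.20) for Mcm4 and 2.35 (SE 0.16) for Mcm6. Mcm6 (ENSMUSG00000026355, chromosome 1, 128331590 to 128359664) was at 32.5, 28.4 and 27.9 CPM in WT and at 140.2, 183 and 129 CPM in KO.

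Mcm7 (ENSMUSG00000029730, chromosome 5, 138164583 to 138172422) had the highest WT level and, in the fit of all 6 libraries, the smallest change. Orc1 was the smaller of the pair without WT 3 (1.16 against 1.26), WT 6 (1.275 against 1.281) or KO 1 (1.28 against 1.33), and on log2(FPKM + 1) (0.76 against 1.26) and log2(FPKM + 0.1) (1.27 against 1.30). Mcm7 measured 81.4, 83.6 and 76.5 CPM in WT and 181, 225 and 171 CPM in KO. WT values differed little, 80.5 ± 3.63 CPM (SD, n = 3), and the KO mean of 193 ± 28.6 CPM was 2.39 times as high (log2 fold change 1.26, SE 0.13). By log2 fold change among all 16606 tested genes, Mcm5 ranked 48 and Cdc6 56, and at the other end Orc1 ranked 1532 and Mcm7 1615. Cdt1, Mcm3 and Mcm2 ranked 162, 181 and 201, Mcm4 and Mcm6 416 and 480, and Gmnn 722.

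The balance of the ring's transcripts differed between the groups, and Mcm7 was the subunit with the smallest fold change. Of the summed FPKM of Mcm2 to Mcm7, Mcm7 made up 43.6%, 47.9% and 42.3% in the WT libraries and 20.4%, 20.1% and 22.1% in the KO libraries. The groups stood well apart, at 44.6% ± 2.92 and 20.9% ± 1.10 (SD, n = 3 each). Mcm5 went the other way, with 8.73%, 5.70% and 5.28% in WT and 17.5%, 18.2% and 16.7% in KO. Mcm3 made up 10.4% to 13.8% in WT and 18.9% to 20.7% in KO, and Mcm2 6.51% to 7.52% and 10.7% to 11.6%. The shares of Mcm4, 12.4% to 17.0% in WT and 14.9% to 15.4% in KO, and of Mcm6, 14.6% to 16.5% and 15.0% to 15.8%, overlapped between the groups.

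Within a library, the most abundant subunit exceeded the least abundant by 5.80, 8.39 and 8.01 times in WT and by 1.81, 1.88 and 1.92 times in KO, on the FPKM scale. The 6 transcripts were thus nearer to equal in every KO library than in any WT library. The gene lengths behind the FPKM count all annotated exons, and for Mcm2 the table has 6956 bases where the annotated coding transcript has 3371. With transcript lengths, chosen after the data were seen, the ratios were 6.32 to 10.6 in WT and 1.95 to 2.22 in KO, so the difference between the groups was present on both lengths. With those lengths the subunit at the low end of the KO order changed from Mcm2 to Mcm4.

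**Figure D2:**
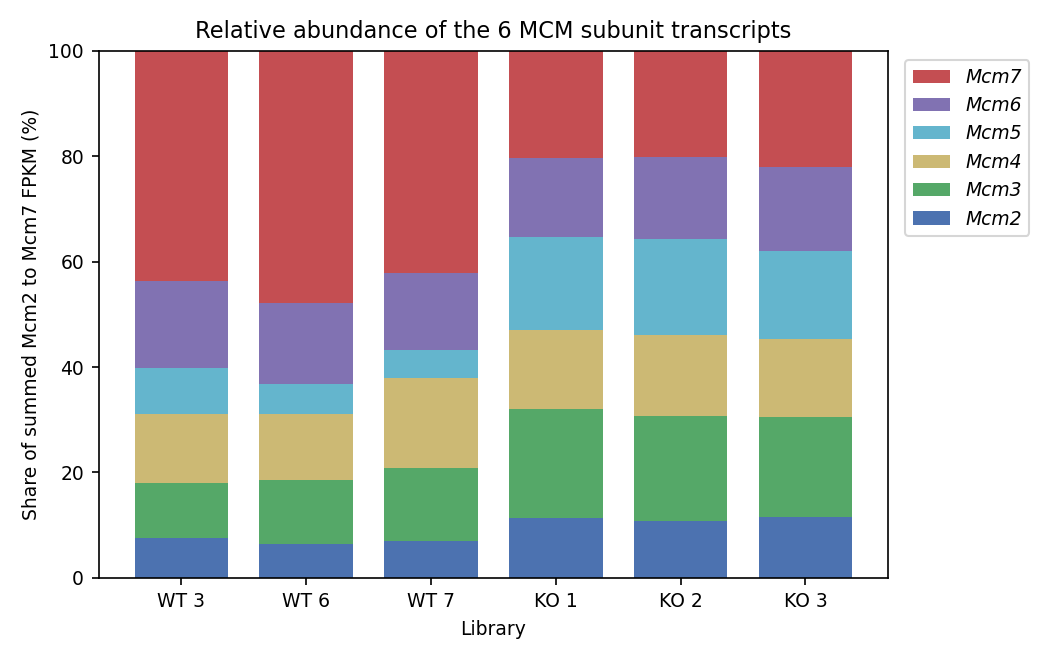
Share of each subunit in the summed FPKM of Mcm2 to Mcm7 (percent), with 1 stacked bar per library. Mcm7 takes 42.3% to 47.9% of the bar in the WT libraries and 20.1% to 22.1% in the KO libraries, and Mcm5 5.28% to 8.73% and 16.7% to 18.2%.

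In the order of levels per length, Mcm7 led the WT libraries at 17.8 ± 1.06 FPKM (SD, n = 3). Gmnn, Mcm6, Mcm4 and Mcm3 followed at means of 6.52, 6.22, 5.67 and 4.82 FPKM, each overlapping its neighbour. Mcm2 and Mcm5 overlapped at 2.82 ± 0.377 and 2.66 ± 0.934 FPKM. Cdt1 at 1.35 ± 0.174, Orc1 at 0.771 ± 0.155 and Cdc6 at 0.437 ± 0.0985 FPKM each stood clear of the next. In KO the upper 7 genes, from Mcm7 at 44.3 ± 6.61 FPKM to Mcm2 at 23.8 ± 3.62 FPKM, overlapped from neighbour to neighbour, while Cdt1 at 12.4 ± 1.64, Cdc6 at 5.95 ± 0.980 and Orc1 at 2.00 ± 0.374 FPKM stayed apart below them. Cdc6 and Orc1 thus changed places, with Orc1 the higher in WT and Cdc6 the higher in KO.

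The KO libraries also differed among themselves in a shared order. All 10 genes were highest in KO 2, and 9 of the 10 followed the order KO 2, KO 1, KO 3, with Gmnn as the exception. The WT libraries had no such order, since 4 genes were highest in WT 3, 2 in WT 6 and 4 in WT 7. The KO order was not particular to the licensing genes. The origin firing genes summed to 783, 963 and 737 CPM in the KO libraries, and the cycling markers to 1402, 1813 and 1377 CPM. How many of all tested genes were highest in KO 2 was not measured, so nothing is read from these counts. Leaving out KO 2 gave the lowest log2 fold change for 7 of the 10 genes, and the median over the 10 was 2.59 without it.

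The other genes of the pathway were taken from lists made by role. Earlier results of these data were known when the lists were made, so their counts and adjusted p-values are not independent support. Of the 6 other genes of origin recognition, 2 rose and none fell, with a median log2 fold change of 0.25 against 0.00 for all tested genes. That share was near the 29.0% of all tested genes called in either direction and above the 13.5% called higher. Orc6 rose from 29.5, 26.2 and 23.4 CPM in WT to 43.1, 54.3 and 41.9 CPM in KO (0.82 on the log2 scale, SE 0.15, adjusted p = 0.0101 with edgeR's quasi-likelihood test and Benjamini-Hochberg adjustment, as for all adjusted p-values given here). Orc2 rose by 0.49 on the log2 scale (SE 0.14, adjusted p = 0.0408), and its call was lost when any library but KO 3 was left out and with no filter on low counts. Orc3 was at -0.26 (SE 0.09, adjusted p = 0.0659) and Lrwd1, which stabilises ORC on chromatin, at 0.28 (SE 0.10, adjusted p = 0.0804) by edgeR. Orc4 and Orc5 did not pass either. In the fit of all libraries Orc1 had the largest fold change of the complex, but it was selected on this contrast. Over the alternatives its log2 fold change ran from 0.76 to 1.48 and that of Orc6 from 0.69 to 0.90, so these ranges overlapped. The 0.76 came from log2(FPKM + 1), and in every other alternative Orc1 was at 1.16 or more.

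Of 7 genes related to MCM, 3 rose and none fell, with a median log2 fold change of 0.40. With 29.0% of all tested genes called and the call of 1 of the 3 genes, Rif1, lost when any library but KO 3 was left out, this count stood little above the background. Mcm10, a firing factor that is not part of the ring, rose from 4.15, 3.41 and 1.94 CPM to 41.3, 54.4 and 37.7 CPM (log2 fold change 3.81, SE 0.31, edgeR adjusted p = 0.000972), a change as large as that of Mcm5. Mcm8, a helicase of recombination repair, rose from 7.85, 4.32 and 4.73 CPM to 19.6, 25.4 and 19.6 CPM (1.94, SE 0.28, edgeR adjusted p = 0.00413), while its partner Mcm9 was at -0.45 (SE 0.23, edgeR adjusted p = 0.171). Rif1, which restrains origin firing, was called at 0.40 (SE 0.11, edgeR adjusted p = 0.0345), and that call was also lost with no filter on low counts. Mcmbp, which binds MCM subunits outside the ring, was at 0.33 (SE 0.10, edgeR adjusted p = 0.0537).

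Of the firing genes, 16 of 17 were higher and none lower in KO, beside 13.5% higher and 15.5% lower among all tested genes, with a median log2 fold change of 2.27, or 4.81-fold. Gins2, a subunit of the GINS complex, rose from 6.34, 4.97 and 5.68 CPM to 31.3, 37.2 and 34.0 CPM (2.59, SE 0.17, edgeR adjusted p = 0.000812). Cdc45, the partner of GINS on the active helicase, rose from 5.22, 3.46 and 4.69 CPM to 37.4, 49.8 and 34.1 CPM (3.18, SE 0.23, edgeR adjusted p = 0.000836). The value of Cdc45 is near those of Cdt1 and Mcm3 and that of Gins2 nearer to Mcm4, and no KO library overlapped WT for either gene. Ccne1, the cyclin that activates CDK2 at the start of S phase, rose 6.74-fold (2.75, SE 0.22, edgeR adjusted p = 0.000972). Ticrr, which recruits CDC45 to origins, rose 8.46-fold (3.08, SE 0.26, edgeR adjusted p = 0.00104). Gins4 was the 1 firing gene not called, at 20.4, 22.2 and 24.8 CPM in WT and 26.2, 31.0 and 28.9 CPM in KO (0.35, SE 0.14, edgeR adjusted p = 0.0994), and the call of Donson ended without WT 6, WT 7, KO 1 or KO 2.

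Of 15 genes that control the stability of CDT1, geminin and their partners, 8 rose and none fell in the edgeR test, beside 13.5% higher and 15.5% lower among all tested genes, with a median log2 fold change of 0.57. In limma-voom 9 were higher and 1 lower. Pcna, the sliding clamp on which CDT1 is marked for destruction in S phase, rose from 87.0, 88.0 and 91.8 CPM to 299.7, 391 and 317 CPM (1.92, SE 0.13, edgeR adjusted p = 0.000812). Dtl, the substrate receptor that recognises CDT1 there, rose from 8.98, 5.57 and 5.92 CPM to 51.6, 64.7 and 53.2 CPM (3.05, SE 0.22, edgeR adjusted p = 0.000836). Skp2, the receptor of a further CDT1 ligase, rose 3.16-fold (1.66, SE 0.19, edgeR adjusted p = 0.00215), and Fbxo5, an inhibitor of the ligase that degrades geminin, 3.54-fold (1.82, SE 0.21, edgeR adjusted p = 0.00236). Kmt5a, Ccnf, Cdc20 and Fzr1 also passed, Fzr1 not without WT 6 or WT 7. The cullins Cul1, Cul4a and Cul4b, the adaptors Ddb1 and Skp1a, and Usp7 and Fbxo31 did not pass, with log2 fold changes from -0.26 to 0.23. The geminin relatives Gmnc and Mcidas, known from multiciliated cells, had 18 reads or fewer in every library and were not tested.

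**Figure D3:**
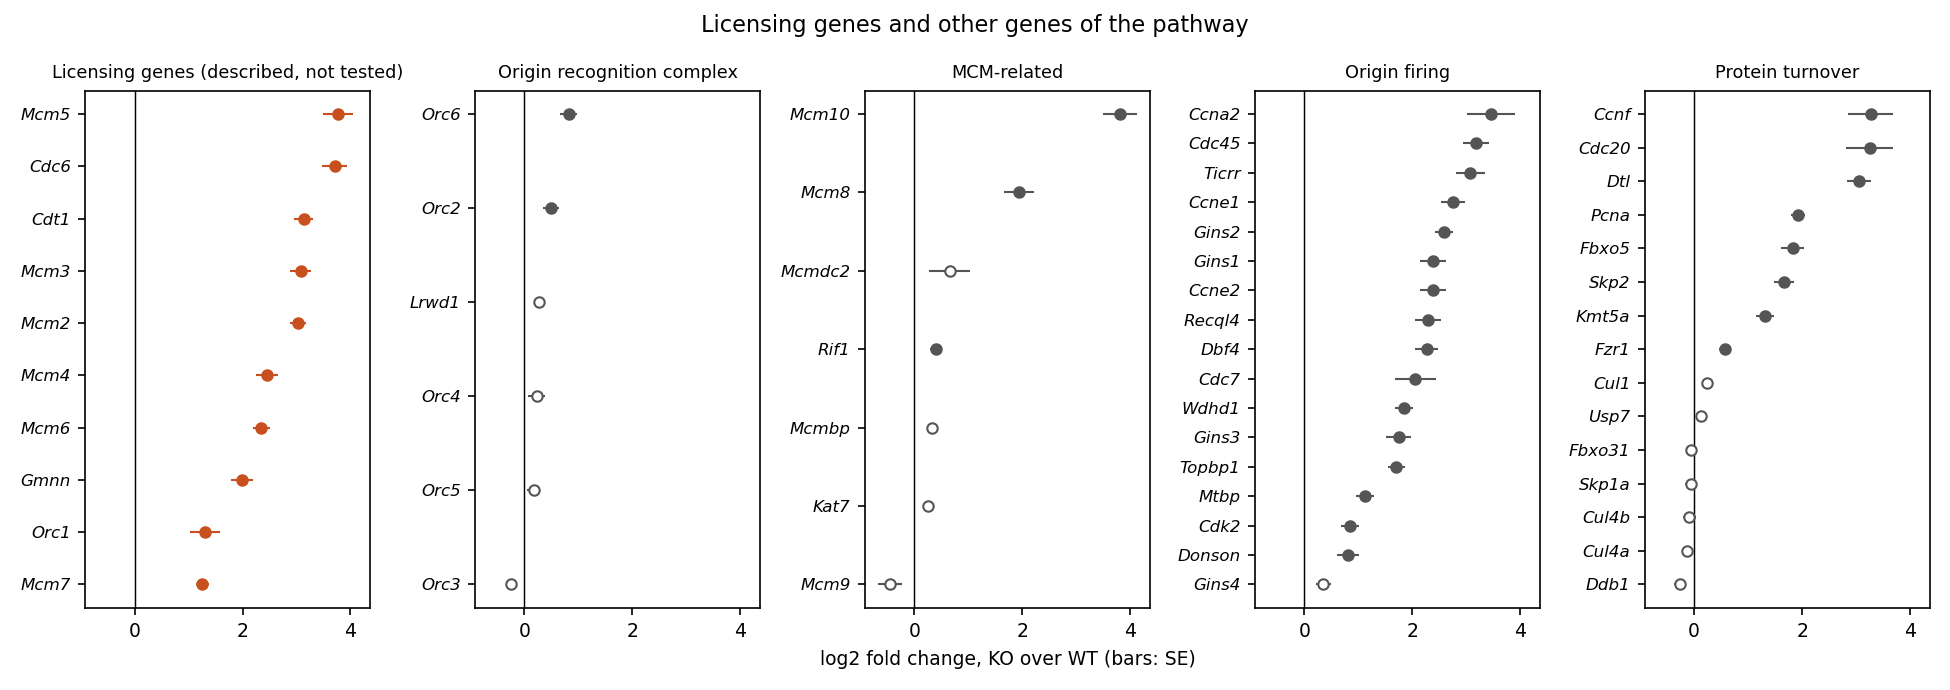
Log2 fold change of KO over WT with its SE, for the 10 licensing genes (orange) and the 4 lists of other pathway genes (grey), where filled points passed an adjusted p of 0.05 in the edgeR quasi-likelihood test. The licensing genes run from 1.26 to 3.77, the firing genes from 0.35 to 3.46, and the origin recognition genes other than Orc1 from -0.26 to 0.82.

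WT 3 was also set against the other WT libraries, a difference inside 1 group that adds to the WT spread in the test of KO and WT. The licensing genes were at a median of 1.05 times the mean of WT 6 and WT 7 in WT 3, from 0.721 for Orc1 to 1.67 for Mcm5, against 0.992 for all tested genes. The 8 markers of cycling cells, most of them mitotic, were at a median of 3.10, from 1.57 for Birc5 to 3.71 for Bub1. Firing genes had a median of 1.19 and turnover genes 1.08, and the genes of these lists above 2 were Ccna2 at 2.90, Cdc7 at 2.47, Cdc20 at 2.73 and Ccnf at 2.68. Summed FPKM of the licensing genes over summed FPKM of the cycling markers was 1.14 in WT 3, 2.72 in WT 6 and 3.38 in WT 7. The same ratio was 0.958, 0.923 and 0.868 in the KO libraries. All 8 cycling markers were called higher in KO, beside 13.5% of all tested genes, at a median log2 fold change of 3.40 in the edgeR fit. With 1 library against 2, the difference inside WT has no test.

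**Figure D4:**
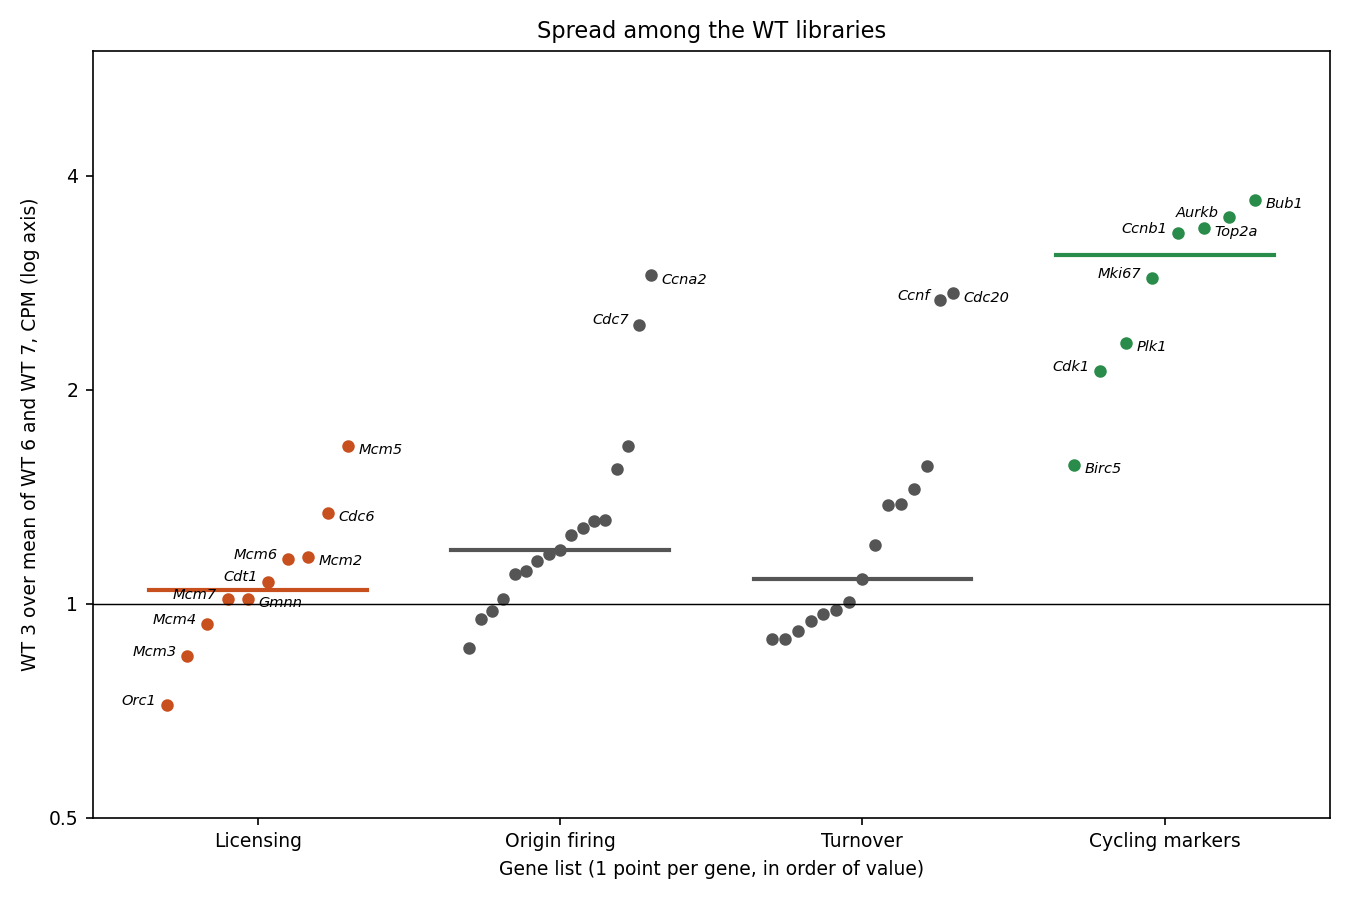
CPM in WT 3 over the mean of WT 6 and WT 7 (log axis), with 1 point per gene and a bar at the median of each list. The licensing genes lie from 0.721 to 1.67 with a median of 1.05, and the cycling markers from 1.57 to 3.71 with a median of 3.10.

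The genes whose profile over the 6 libraries was most like the mean profile of the licensing genes were sought among 13802 genes. The measure was the root mean square difference of log2 CPM, each gene centred on its own mean. The nearest were Ccne1 at 0.0889, Rad54l, a recombination factor, at 0.107, Gins2 at 0.118, Timeless, a fork protection factor, at 0.139, and Cenph, a kinetochore gene, at 0.145. The licensing genes themselves lay at 0.14 for Mcm6 to 0.686 for Orc1. The 5 genes were picked as the nearest of all 13802, and the mean profile came from genes selected on this contrast. Their distances are therefore not read against those of the licensing genes. The libraries fall into separated groups, so a profile with a KO to WT difference of the same size scores as alike.

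Genes that share a start region or bases with a licensing gene were read beside it, since the use of strand in counting is not stated. Prkdc, a DNA repair kinase gene, starts 466 bases from Mcm4 on the opposite strand and was at 32.3, 29.0 and 35.0 CPM in WT and 38.3, 30.9 and 27.8 CPM in KO (0.01 on the log2 scale, SE 0.16, edgeR adjusted p = 0.963). Ap4m1 starts 420 bases from the Mcm7 start on the opposite strand and overlaps it by 421 bases. It was at 28.4, 29.8 and 30.2 CPM in WT and 30.0, 24.3 and 27.3 CPM in KO (-0.11, SE 0.13, edgeR adjusted p = 0.526). Neither neighbour passed the test, and their groups overlapped. Prpf38a, a splicing factor gene that starts 87 bases from Orc1 on the opposite strand, was at 53.3, 55.6 and 51.5 CPM in WT and 56.2, 71.7 and 67.2 CPM in KO (0.28, SE 0.12, edgeR adjusted p = 0.115). The E2F match of Orc1 lies in the promoter window of Prpf38a as well, and both E2F matches of Mcm7 lie in that of Ap4m1.

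Cops6 overlaps the 3′ end of Mcm7 by 64 bases and did not pass (0.15, SE 0.12, edgeR adjusted p = 0.342). The antisense transcript Gm12743 had 19 to 40 reads per library (-0.45, SE 0.37, edgeR adjusted p = 0.374), and its gene span overlaps that of Orc1 along 22409 bases, introns included. The annotated exons hold 3700 bases for Gm12743 and 3479 for Orc1, and the overlap of exons was not measured. With 39 to 72 reads for Orc1 in WT, reads shared between that pair could move the Orc1 level, but their number was not measured. Gm20388, annotated across Cdt1, had 0 reads in every library, and the pseudogene Gm20587, which starts 1019 bases from Mcm3 on the opposite strand, had 0 to 4. The microRNA genes Mir25, Mir93 and Mir106b inside Mcm7 had 0 to 2 reads in every library.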

How the data were processed

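Per the file headers, and judged by column sums, the deposited table held raw read counts per gene as whole numbers, beside FPKM values that the authors computed from gene length and library total. Multiplying FPKM back by both gave the deposited count within 0.05 reads in 327188 of 327192 values and in all 60 values of the licensing genes. The genome build was mm10, and the tools listed were featureCounts 1.5.0-p3, HISAT2 2.0.5 and DESeq2 1.16.1, per the submitters' processing notes. Their settings, strand use and gene annotation are not stated there.

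KO and WT were compared in 1 fit of the 6 libraries with edgeR 4.0.16 in R 4.3.3 (TMM, filterByExpr defaults, two-sided quasi-likelihood F test, Benjamini-Hochberg adjustment over 16606 genes, threshold 0.05). The SE was taken as the size of the log2 fold change over the square root of F. Log2 CPM had a prior count of 2. Every pair of libraries differed beyond sampling noise, with chi-square over degrees of freedom at 16.1 or more. The licensing genes and gene lists were chosen with earlier results of these data known. Named were the 10 licensing genes, Ash2l, the 4 tested genes of each pathway list with the lowest p, genes that overlap a licensing gene or start within 2000 bases of its start on the opposite strand, and the 5 protein-coding genes nearest in profile. Others were named after their values were seen. Transcript lengths came from GENCODE M21 and promoters from RefSeq GRCm38.p6. Protein sequences were not used here. Alternatives were RLE size factors, library totals, no filter, DESeq2 1.42.0, limma-voom with quality weights and limma 3.58.1 on log2 FPKM with pseudocounts of 1 or 0.1 where the mean FPKM reached 0.5, annotated transcript length, CPM without length, and leaving out each library.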

Additional observations from a re-analysis of the deposited data

How the results depend on the processing

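Of the licensing genes, the genes of the 4 pathway lists and the cycling markers, Fbxo31, which passed in no setting, was the 1 that changed direction. Genes that neighbour a licensing gene or resemble its profile, and Ash2l, were not refitted under the alternatives. Over the licensing genes and all alternatives, 126 log2 fold changes moved by less than the spread between replicates (1 SD) and 4 moved by more, all on log2(FPKM + 1), where the pseudocount compresses low values, at 2.70 for Mcm2, 2.27 for Cdc6, 2.50 for Cdt1 and 0.76 for Orc1 (and 2.29 for Mcm10), with a median over the 10 genes of 2.29. The MCM-related genes called were 5 with library totals, 5 on log2(FPKM + 1), 5 on log2(FPKM + 0.1) and 7 with limma-voom, 6 of them higher and 1 lower. The other origin recognition genes called were 1 with no filter and 4 with limma-voom, 3 of them higher and 1 lower. Over all genes limma-voom called 8052. Mcm7 made up 22.4% of the MCM transcripts in KO with annotated transcript lengths. On the CPM scale without length, Gmnn over Cdt1 was 2.31 in WT and 1.02 in KO. The cause of these moves was not tested. The median of all genes shifted to 0.14 with no filter and 0.16 with DESeq2.

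Leaving out 1 library at a time gave 2178 to 6641 called genes, with 2178 without WT 6, 2449 without WT 7, 2889 without KO 1 and 2516 without KO 2. Firing genes called ran from 15 to 16, turnover genes from 7 to 8, other origin recognition genes from 1 to 2 and MCM-related genes from 2 to 3. The median over the licensing genes ran from 2.59 to 2.86, the Mcm7 share from 42.9% to 45.7% in WT and from 20.3% to 21.3% in KO, and Gmnn over Cdt1 from 4.11 to 5.63 in WT and from 2.01 to 2.36 in KO. No paired analysis was possible because the groups share only replicate number 3. Orc1 had 127, 143 and 115 reads in the KO libraries, the fewest of the 10 genes there.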
